A study of Drosophila melanogaster with 39 samples.

Results

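Collagen IV and laminin are the main structural proteins of the basement membrane, the sheet of extracellular matrix that lines epithelia, muscles and fat body. In *Drosophila* 5 of the genes that encode them were taken as a fixed list. These are *vkg* and *Col4a1* (the collagen IV chains), *LanA* (a laminin alpha chain), *LanB1* (the laminin beta chain) and *LanB2* (the laminin gamma chain). The gene of the other laminin alpha chain, *wb*, is described with the other basement membrane genes. The 5 members are among 18358 annotated genes. Each was given its annotated span with 1 kb to either side on the dm6 (release 6) assembly. The measurements were ChIP-seq peak lists from Kc167 cells, an established embryonic line of hemocyte type. Cells were treated for 4 days with dsRNA against *eff* (eff knockdown), with dsRNA against *cul4* (cul4 knockdown) or with *mcherry* dsRNA (control). Cul4 (rabbit antibody), CP190 and Su(Hw) were mapped in 3 libraries of each treatment, and Cul4 was also mapped with a mouse antibody in 3 control libraries, which gave 30 lists in 10 groups. Another 9 libraries are inputs and have no list. The lists hold no transcript levels, so neither the hemocyte label nor the expression of the 5 genes could be checked.

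Hemocytes and fat body secrete most of the collagen IV and laminin of the fly, and cells of the Kc line are known to secrete them into the culture medium. Collagen IV is a trimer of the Col4a1 and Viking chains, whose genes lie head to head, and laminin is a trimer of an alpha, a beta and a gamma chain whose genes lie apart. Eff is an E2 enzyme that passes ubiquitin to substrates with the help of E3 ligases, and Cul4 is the cullin on which one class of E3 ligases is built. Su(Hw) reads the DNA of the *gypsy* insulator through its zinc fingers. CP190 has no strong sequence preference of its own and is brought to DNA by Su(Hw), CTCF, BEAF-32 and others, often at promoters. The study asked whether loss of Eff or Cul4 changes where insulator proteins are found on chromatin, and the lists allow that question to be put to single genes.

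For each peak the lists give a fold enrichment, the height of the ChIP signal at the summit over that of the local background. Lists held 424 to 9149 peaks, and the 3 rabbit Cul4 lists after eff knockdown differed most, at 4488, 571 and 424 peaks, against 4447 to 5355 in control. The fold of a peak was therefore also given as its percentile, the percent of peaks in the same list with an equal or lower fold. A percentile still depends on how many weak peaks a list holds. Over all genes called in the 6 libraries compared, the median difference in percentile (knockdown minus control) was negative in every comparison. It was -15.8 for Cul4 after eff and -4.28 after cul4 knockdown, -1.46 and -4.83 for CP190, and -3.99 and -8.02 for Su(Hw). The median fold of the weakest peaks of a list, those with a -log10 q under 15, ran from 2.25 to 4.63. It is a rough guide and not a floor for calls. In Cul4 eff knockdown replicate 3, where it was 4.63, the lowest fold called was 2.75. It rests on 837 peaks in Cul4 eff knockdown replicate 1 but on 1 peak in Su(Hw) eff knockdown replicate 3. The read depth is unknown. No 2 lists were identical, and the labels call the 3 libraries of a group biological replicates without saying whether cultures were grown and treated apart, so tests measure only the spread between these libraries. With 3 against 3 libraries, the smallest two-sided exact permutation p is 0.1, so no single gene could pass a threshold of 0.05.

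In control cells 4 of the 5 genes held a rabbit Cul4 peak in all 3 libraries (*vkg*, *LanA*, *LanB1* and *LanB2*), against 29.8% of all genes. CP190 was called in all 3 control libraries at *Col4a1*, *LanB1* and *LanB2*, against 48.1% of all genes, and Su(Hw) at *vkg* alone, against 13.6%. Long genes can hold more peaks, so the same was counted within 1 kb of a transcript start. There Cul4 was called at the same 4 genes (25.3% of all genes), CP190 at *LanB1* and *LanB2* (39.2%) and Su(Hw) at none (6.7%). The mouse antibody, whose lists are shorter, gave no member in all 3 libraries (5.95% of all genes), and its only peaks were at *LanB2*, in 2 of 3 libraries. Over 30 libraries *LanB2* held a peak in 20, *LanB1* in 17, *vkg* in 14, *Col4a1* in 11 and *LanA* in 8. No pair of members had the same set of calls.

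**Figure D1:**
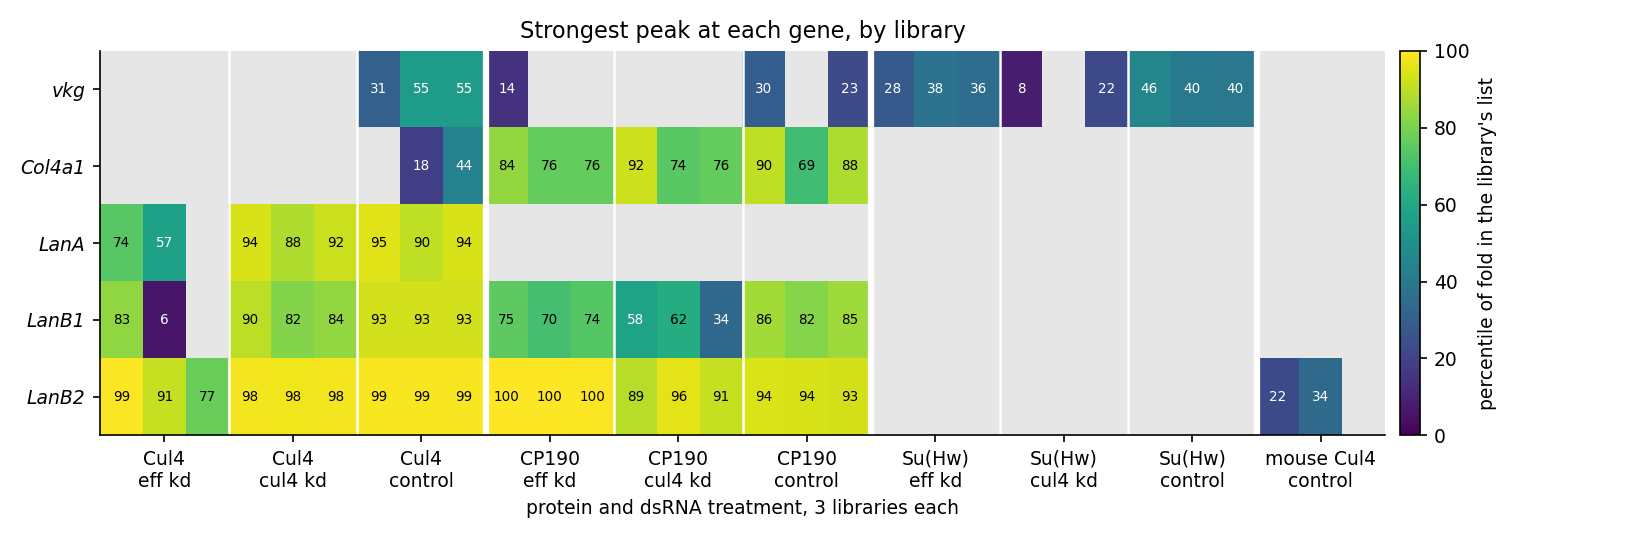
Percentile of fold of the strongest peak at each of the 5 genes (rows) in each of the 30 libraries (columns, grouped by protein and treatment, 3 libraries each); grey cells have no peak. *LanB2* is called in all 18 rabbit Cul4 and CP190 libraries, *LanA* has only Cul4 peaks, and *vkg* is the only gene with Su(Hw) peaks.

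The same count after knockdown left *LanB2* alone with Cul4 in all 3 eff knockdown libraries, against 1.74% of all genes, and *LanA*, *LanB1* and *LanB2* in all 3 cul4 knockdown libraries, against 18.4%. CP190 was called at the same 3 genes in all 3 eff knockdown libraries (49.6% of all genes) and in all 3 cul4 knockdown libraries (42.5%). Su(Hw) at *vkg* was called in all 3 eff knockdown libraries (13% of all genes) and in 2 of 3 cul4 knockdown libraries, which left no member there (11.7%). *vkg* was the only member that held Cul4 in all 3 control libraries and in none after knockdown, in both knockdowns. Of all genes with a Cul4 peak in all 3 control libraries, 27.9% held none after eff knockdown and 14.7% none after cul4 knockdown. For CP190 no member was in that state, against 0.453% of genes after eff knockdown and 1.11% after cul4 knockdown, and for Su(Hw) none, against 1.04% and 5.96%. The count for Cul4 after eff knockdown rests on the shortest list: without replicate 3 of both groups, *LanA*, *LanB1* and *LanB2* were all called in both remaining eff knockdown libraries.

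Calls were then compared by region, that is by peaks of 3 knockdown and 3 control libraries of a protein merged where they overlap by at least 1 bp. A region called in all 3 control and in no knockdown library was counted as lost, the reverse as gained, and a region called in all 6 as kept. For Cul4 the members held 5 regions in all 3 control libraries. After eff knockdown 1 of them was lost (29.2% of all such regions) and 1 kept (5.23%), and after cul4 knockdown 1 was lost (20.6%) and 4 were kept (54.8%). For CP190 they held 6, of which 1 was lost and 5 kept after eff knockdown (1.08% of all such regions lost and 96.3% kept), and 2 were lost and 4 kept after cul4 knockdown (2% lost and 83.3% kept). The single Su(Hw) region was kept after eff knockdown (1.45% of regions lost and 91.8% kept) and neither kept nor lost after cul4 knockdown (8.01% lost and 79.6% kept). No member region was gained in any comparison. Among all regions called in all 3 knockdown libraries, 0% were gained for Cul4 after eff knockdown, 0.424% for Cul4 after cul4 knockdown, 0.191% for CP190 with eff and 0.0657% with cul4 knockdown, and 0.342% for Su(Hw) with eff and 0.0667% with cul4 knockdown. The knockdowns share their control libraries. The counts of lost regions also depend on single libraries. Without replicate 1 of both groups 5 Cul4 regions were lost after eff knockdown and 4 after cul4 knockdown, and without replicate 2 of both groups 2 CP190 regions were lost after eff knockdown and 4 after cul4 knockdown.

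*vkg* (2L, 5012144 to 5028191, minus strand, FBgn0016075) and *Col4a1* (2L, 5029609 to 5037279, plus strand, FBgn0000299) face each other across 1417 bp. *vkg* has an outer start at 5028191 and an inner start at 5027445, and the Cul4 peak lay at the inner start, from 5027282 to 5027642 with summits within 43 bp of that start, in the 5′ UTR in control replicates 1 and 2 and in the intron before it in replicate 3. It was called in none of the 3 eff knockdown and none of the 3 cul4 knockdown libraries, against folds of 3.26, 3.8 and 4.22 in the control libraries (percentiles of 30.6, 55.1 and 55.4). The 3 control folds were above the 2.54 to 3.01 at the weakest peaks of the cul4 knockdown lists, and above 2.25 and 2.67 in replicates 1 and 2 of the eff knockdown but below 4.63 in replicate 3. The part of list depth in the missing calls was not tested. With peaks of a -log10 q of at least 20 only, *vkg* no longer counts as lost, since control replicate 1 has a -log10 q of 15.1 there. Across the gap, Cul4 lay at the *Col4a1* start in 2 of 3 control libraries, at a fold of 2.88 and 3.91, and in no library of either knockdown. These 5 peaks, all in control lists, were the only Cul4 peaks of the collagen gene pair.

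The 150 bases before the inner *vkg* start are shown because they carry the flank of that peak (chr2L:5027446-5027595, dm6, minus strand, 5′ to 3′). The capitals mark CGATA, the core of the BEAF-32 and DREF word TATCGATA, and GAGAG, the word of GAGA factor, on either strand. CGATA is found in 43.5% and GAGAG in 32.3% of 23694 promoters of 300 bases (250 before to 50 after a start), so both are common. The Cul4 summit itself had a different GAGAG within 100 bp, inside the transcript and outside the bases shown. GAGAG lay within 100 bp at 27.9% of Cul4 sites called in all 3 control libraries.
vkg inner start: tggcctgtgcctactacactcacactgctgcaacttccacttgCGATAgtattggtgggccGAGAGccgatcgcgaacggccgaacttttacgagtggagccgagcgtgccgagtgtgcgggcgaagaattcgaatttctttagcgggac

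Su(Hw) lay within *vkg* rather than at its start, in an intron about 2200 bp from the outer start, and it was the only Su(Hw) site of the 5 genes. Its fold was 7.57, 7.05 and 5.9 in the eff knockdown libraries, against 7.28, 6.82 and 6.3 in the control libraries. As percentiles these were 28.3, 37.9 and 35.9 after eff knockdown, against 45.7, 40.5 and 39.8 in control. The percentiles did not overlap (difference -8.02, two-sided exact permutation p = 0.1, 0.22 after Benjamini-Hochberg adjustment over all genes), whereas the folds did, with means of 6.84 ± 0.855 and 6.8 ± 0.49 (SD, n = 3 each). Without replicate 1 of both groups the percentile difference was -3.32. Of all genes called for Su(Hw) in these 6 libraries, 29.6% had percentiles all lower after eff knockdown and 15.9% all higher. After cul4 knockdown the fold was 4.9 in replicate 1 and 4.96 in replicate 3, below every control value, and replicate 2 held no peak. How often Su(Hw) regions elsewhere had lower folds was not computed. A CP190 peak lay at the same place in 1 eff knockdown library (fold 4.4), in no cul4 knockdown library and in 2 control libraries (5.42 and 4.6).

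The strong site of the collagen pair was at the other end of *Col4a1*. CP190 lay in an intron 6.7 kb after the *Col4a1* start and 1379 to 1400 bp before the start of the next genes, *CG14042* and *SP555*, which is the nearest start. It was called in all 9 CP190 libraries. The fold was 13.7, 12.6 and 12.9 in eff knockdown and 15.2, 16 and 20.8 in cul4 knockdown libraries, against 14.2, 9.09 and 13 in control. All 3 cul4 knockdown folds were above all 3 control folds. The same held for the median fold over all peaks of these lists. It was 7.5, 9.3 and 11.5 in cul4 knockdown libraries, against 7.27, 6.53 and 6.93 in control. The folds at the weakest peaks of these lists were 2.6, 3.29 and 4.17 in the cul4 knockdown libraries, against 2.31 to 2.66 in control, and their part in the result was not tested. As percentiles the site did not differ beyond the spread: 78.8 ± 4.2 in eff knockdown and 81 ± 9.7 in cul4 knockdown libraries, against 82.4 ± 11.5 in control (SD, n = 3 each; two-sided exact permutation p = 0.8 and 1). Neither Su(Hw) nor Cul4 was called there in any library.

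This site is shown because it differs from the other CP190 sites of the members in its letters (chr2L:5036247-5036397, dm6, plus strand, 5′ to 3′). The capitals mark AGATGGCGC, a form of the core that CTCF is known to bind, and its reverse complement. Both copies lie within 100 bp of the summit and point towards each other. The word was added after the sequence had been read, so its presence is a description. One copy or more is found at 2.39% of 7113 CP190 sites called in all 3 control libraries, and 2 copies or more at 9 of them (0.127%). Neither the M1BP word GTGTGACC nor the core CGATA is in this window.
Col4a1 intron: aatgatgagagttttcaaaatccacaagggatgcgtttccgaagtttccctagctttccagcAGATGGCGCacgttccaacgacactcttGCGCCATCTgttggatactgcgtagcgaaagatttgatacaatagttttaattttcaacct

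*LanA* (3L, 6203831 to 6218022, minus strand, FBgn0002526) has a single annotated start and held Cul4 alone. The peak lay over the start, with summits 64 to 86 bp inside the transcript in control. The fold was 3.08 and 3.33 in eff knockdown replicates 1 and 2, with no peak in replicate 3, and 8.03, 7.09 and 7.39 after cul4 knockdown, against 9.31, 6.33 and 8.41 in control. The eff knockdown folds were below those of every other library, and how common this was over all Cul4 regions was not computed. After cul4 knockdown the values overlapped control, and the percentile differed by -1.9 (91.3 ± 2.92 after cul4 knockdown and 93.2 ± 2.41 in control, SD, n = 3 each; two-sided exact permutation p = 0.5, Benjamini-Hochberg 0.696). The width of the call also differed from control. Call widths over all Cul4 regions were not compared, and the part of list depth was not tested. In the cul4 knockdown libraries the peak at the start was 447, 400 and 447 bp wide and a separate peak of 356, 227 and 392 bp lay 552 to 578 bp upstream, against 1 peak of 1211, 1185 and 1111 bp in the control libraries. Eff knockdown replicate 1 also held 2 peaks there, with the second 688 bp upstream.

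The bases before the *LanA* start are shown because the control Cul4 peak extends over them (chr3L:6218023-6218272, dm6, minus strand, 5′ to 3′). The capitals mark the core CGATA, the word GAGAG, and GATA factor words (TGATAA, with the variants that begin in A or end in G), on either strand. GATA factors are known regulators of hemocyte genes. A GATA word is found in 45.3% of promoters. Within 100 bp of the Cul4 summit *LanA* had 2 GATA words, both inside the transcript and outside the bases shown. At least 1 was found at 27.1% of Cul4 sites.
LanA start: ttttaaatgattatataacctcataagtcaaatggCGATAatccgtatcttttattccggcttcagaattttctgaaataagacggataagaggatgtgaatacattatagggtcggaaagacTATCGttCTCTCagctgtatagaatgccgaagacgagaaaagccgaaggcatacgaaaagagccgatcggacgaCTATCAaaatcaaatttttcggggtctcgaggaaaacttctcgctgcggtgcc

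*LanB1* (2L, 7811438 to 7820771, plus strand, FBgn0261800) starts 734 bp from the start of *Cdc14*, a phosphatase gene that runs the other way, and has a second start at 7814354. It held the most peaks of the 5 genes, 42 over 17 libraries. Cul4 lay just inside both divergent genes, and CP190 lay between them. At the *LanB1* side, with summits 68 to 105 bp inside the transcript, the Cul4 fold was 3.36 and 2.44 in eff knockdown replicates 1 and 2, with no peak in replicate 3. It was 6.09, 6.05 and 5.94 after cul4 knockdown, against 7.4, 7.08 and 7.9 in control. At the *Cdc14* side it was 2.07 in eff knockdown replicate 1, with no peak in replicates 2 and 3, and 3.86, 3.93 and 4.21 after cul4 knockdown, against 5.76, 6.49 and 6.79 in control. At both sides every knockdown fold was below every control fold. The paper reports a strong loss of Cul4 signal across its peaks after either knockdown. The share of all Cul4 regions with folds all lower was not computed, so the fall is not shown to be particular to these sites.

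As percentiles the *LanB1* side was at 89.9, 81.6 and 83.9 after cul4 knockdown, against 93.2, 93 and 93.2 in control (difference -8.01, two-sided exact permutation p = 0.1, Benjamini-Hochberg 0.273 over all genes). The *Cdc14* side differed more, at 47.1 ± 11.4 after cul4 knockdown, against 89.6 ± 2.19 in control (SD, n = 3 each, exact permutation p = 0.1). Of the 4 kept Cul4 regions of the members, 3 were lower in percentile in every cul4 knockdown library, against 26.4% of all kept regions, and none was higher, against 10.8%. By gene, *LanB1* and *LanB2* were lower, against 28% of all genes called in these 6 libraries, and none was higher, against 8.63%. The *LanB2* difference was -0.752, and its ranks from the top overlapped control.

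CP190 between *Cdc14* and *LanB1* had its summit 160 to 316 bp before the *LanB1* start. Its fold was 12.1, 11.4 and 12.2 in eff knockdown and 8.53, 11.9 and 8.54 in cul4 knockdown libraries, against 13, 11.9 and 12.3 in control. The percentiles were 75.3, 70.5 and 73.5 in eff knockdown and 58, 61.9 and 33.5 in cul4 knockdown libraries, against 86.3, 81.9 and 85.3 in control. Neither knockdown overlapped control in percentile: the difference was -11.4 after eff knockdown (exact permutation p = 0.1, Benjamini-Hochberg 0.239) and -33.4 after cul4 knockdown (exact permutation p = 0.1, Benjamini-Hochberg 0.266). The fold overlapped control after eff knockdown, with means of 11.9 ± 0.436 and 12.4 ± 0.557 (SD, n = 3 each). In cul4 knockdown replicate 3, which has the lowest percentile, the weakest peaks of the list had the highest fold of all CP190 lists, 4.17, and its part in the result was not tested.

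Inside *LanB1*, CP190 lay at the second start and in the intron before it. At the second start, with summits from 51 bp before to 5 bp after it, the fold was 3.95, 3.65 and 3.92 after eff knockdown, against 6.36, 4.64 and 5.27 in control. The 3 eff knockdown values were below the 3 control values, and the percentile was 6.81 ± 1.7 after eff knockdown and 33 ± 6.79 in control (SD, n = 3 each, exact permutation p = 0.1). No cul4 knockdown library held a peak there. The folds at the weakest peaks of the cul4 knockdown lists were 2.6, 3.29 and 4.17, below the 3 control folds, and the part of list depth was not tested. In the intron, 766 to 892 bp before the second start, CP190 was called in none of the 6 knockdown libraries, against folds of 3.57, 2.93 and 3.23 in control. These 3 peaks were at or below 6.57 in percentile, with a -log10 q of 34, 17.2 and 28.8. The folds at the weakest peaks were 2.6, 2.7 and 2.89 in the eff knockdown lists and 2.6, 3.29 and 4.17 in the cul4 knockdown lists. Of the 5 CP190 regions kept after eff knockdown 3 were lower in percentile in every library, against 22.8% of all kept regions, and 1 higher, against 18%. After cul4 knockdown 2 of 4 were lower, against 22.8%, and none higher, against 13.2%. Without replicate 2 of both groups, 2 members in place of 1 were lower in CP190 percentile by gene in each knockdown.

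The bases before both *LanB1* starts are shown because CP190 was lower in percentile at both after eff knockdown, and after cul4 knockdown lower at the first and not called at the second (chr2L:7811148-7811437 and chr2L:7814204-7814353, dm6, plus strand, 5′ to 3′). The capitals mark the core CGATA, the word GAGAG, and the words of GATA factors as above, on either strand. The first start has 3 copies of CGATA within its last 65 bases, and 9.49% of promoters hold 3 or more. No copy lies within 100 bp of the CP190 summit before this start, at 7811192, or of the Cul4 summit after it, at 7811528. The second start has 1 copy 78 bases before it, within 100 bp of the CP190 summit there.
LanB1 first start: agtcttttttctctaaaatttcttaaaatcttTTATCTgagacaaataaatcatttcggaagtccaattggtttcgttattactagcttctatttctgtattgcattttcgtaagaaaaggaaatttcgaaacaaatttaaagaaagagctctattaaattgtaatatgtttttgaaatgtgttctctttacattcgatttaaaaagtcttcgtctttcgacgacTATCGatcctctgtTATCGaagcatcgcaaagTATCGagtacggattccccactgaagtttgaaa
LanB1 second start: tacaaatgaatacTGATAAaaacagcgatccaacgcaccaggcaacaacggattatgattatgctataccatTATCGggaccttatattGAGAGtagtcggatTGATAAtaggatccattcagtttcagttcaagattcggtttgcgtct

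**Figure D2:**
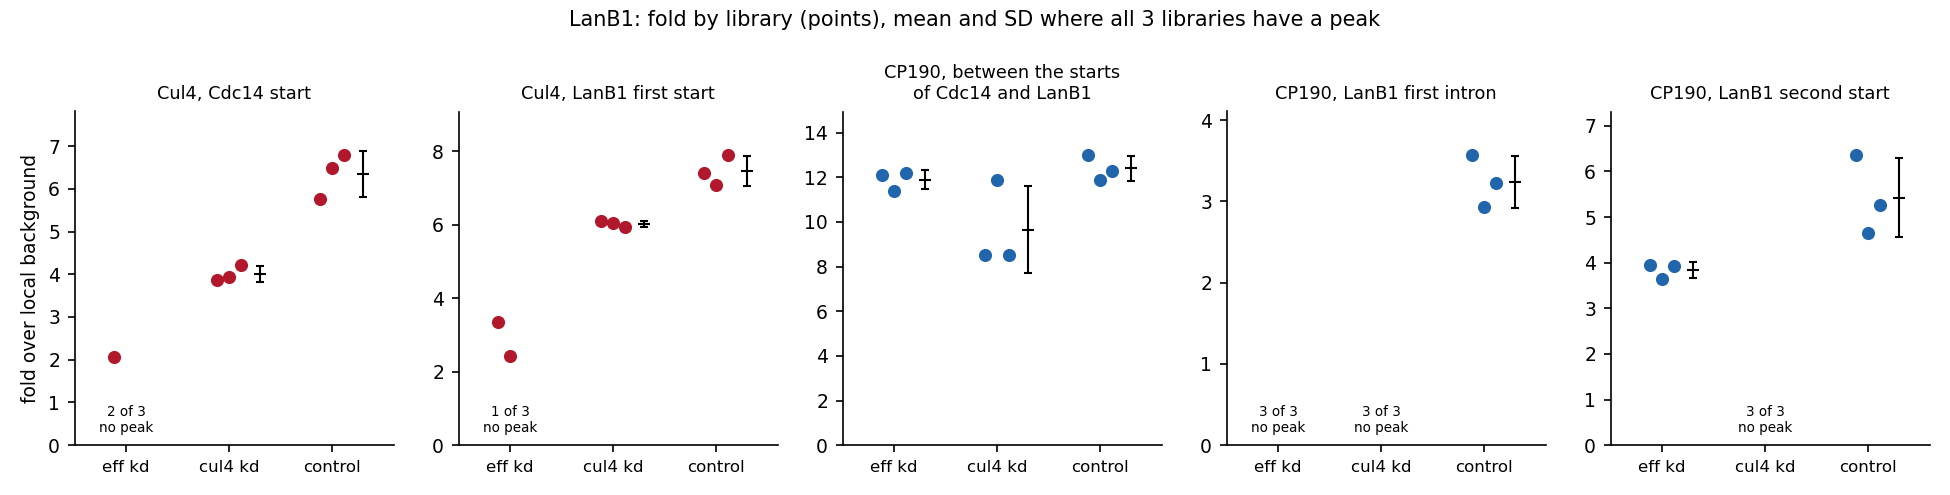
Fold over the local background (y axis, linear, from 0) at 5 regions of *LanB1* and the neighbouring *Cdc14* start, for eff knockdown, cul4 knockdown and control libraries (points, 3 per group; bars, mean and SD where all 3 libraries have a peak). Cul4 at the *LanB1* start lies between 5.94 and 6.09 after cul4 knockdown and between 7.08 and 7.9 in control, and CP190 at the second start has no peak after cul4 knockdown.

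*LanB2* (3L, 9614914 to 9623980, plus strand, FBgn0267348) carried the strongest sites of the 5 genes. Cul4 and CP190 summits lay at one place about 775 bp before its first start and past the end of *Tmc*, the gene upstream, which ends 912 bp before *LanB2*. The 18 summits of the 9 rabbit Cul4 and 9 CP190 libraries fell between 9614127 and 9614150, and both mouse Cul4 summits lay 780 and 811 bp before the start, at a fold of 4.62 and 3.85.

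Cul4 at this site had a fold of 7.8, 7.62 and 11.3 in eff knockdown and 13.5, 17.1 and 12.1 in cul4 knockdown libraries, against 20.2, 16.2 and 20.9 in control. Every eff knockdown value was below every control value, whereas 1 cul4 knockdown value, 17.1, lay within the control range. The share of all Cul4 regions with such a fall in fold was not computed. As percentiles the site was at 99.3, 91.4 and 77.4 in eff knockdown and 98.4, 97.9 and 98.2 in cul4 knockdown libraries, against 99, 98.9 and 98.9 in control. The eff knockdown percentiles come from lists of 4488, 571 and 424 peaks. They overlapped control (difference -9.55, exact permutation p = 0.4; -14.5 without replicate 1 and -3.56 without replicate 3 of both groups), and of all genes called in these 6 libraries 38.7% were all lower and 3.46% all higher. After cul4 knockdown the percentiles did not overlap control (difference -0.752, exact permutation p = 0.1, Benjamini-Hochberg 0.273). The ranks from the top did overlap, at 51, 51 and 62 after cul4 knockdown, against 46, 62 and 51 in control. These come from lists of 3037, 2378 and 3431 peaks, against 4447, 5355 and 4469. By log2 rank the difference was -0.0496. Call widths over all Cul4 regions were not compared, but here the call was also narrower. It spanned 430, 317 and 272 bp in eff knockdown and 1260, 425 and 595 bp in cul4 knockdown libraries, against 1363, 1309 and 1312 bp in control, where it reached past the *LanB2* start. Cul4 knockdown replicates 2 and 3 and eff knockdown replicate 1 held a separate peak 33 to 88 bp inside the *LanB2* transcript, under the wide control call.

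In fold, CP190 at the same site went the other way from Cul4 after eff knockdown, whereas the Cul4 percentiles overlapped control. Its fold was 21.8, 23.1 and 24.5 in eff knockdown and 14.4, 24.5 and 28.4 in cul4 knockdown libraries, against 16.1, 16.5 and 15.1 in control. The mean was 23.1 ± 1.35 after eff knockdown and 15.9 ± 0.721 in control (SD, n = 3 each), with no overlap. The median fold over all peaks of these lists did not overlap either. It was 7.95, 7.94 and 7.88 after eff knockdown, against 7.27, 6.53 and 6.93 in control. The percentiles of the site were 99.8, 99.7 and 99.6 after eff knockdown, against 94.5, 93.9 and 93.4 in control (difference 5.74, exact permutation p = 0.1, Benjamini-Hochberg 0.239 over all genes). After eff knockdown *LanB2* was the only member higher in CP190 percentile, against 20.3% of all genes called in these 6 libraries, and *LanB1* the only one lower, against 21.6%. After cul4 knockdown none was higher, against 11.9%, and *LanB1* was again the only one lower, against 25.6%. After cul4 knockdown the *LanB2* percentiles of 89.3, 96 and 91.4 overlapped control (exact permutation p = 0.5). The difference between the knockdowns was not tested.

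At the other end of *LanB2*, CP190 lay 59 to 98 bp before the start of *CG3335*, the gene downstream. The fold was 11.7, 10.9 and 11.4 in eff knockdown and 10.2, 14.3 and 16.3 in cul4 knockdown libraries, against 14, 11.3 and 12.6 in control. The folds overlapped, but the percentile was 70.3 ± 2.9 in eff knockdown and 68.3 ± 2.03 in cul4 knockdown libraries, against 85.3 ± 5.15 in control (SD, n = 3 each, exact permutation p = 0.1 for both). With the span of *LanB2* alone, which leaves out the upstream site, this region becomes its strongest CP190 peak and the CP190 difference is -15 in place of 5.74 after eff knockdown and -17 in place of -1.72 after cul4 knockdown. The Cul4 difference after cul4 knockdown is then -8.87 in place of -0.752.

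Both ends are shown because they carry CP190 with unlike letters (chr3L:9614047-9614227 and chr3L:9624096-9624236, dm6, plus strand, 5′ to 3′). In the upstream site the capitals mark the stretch that holds the 18 Cul4 and CP190 summits, and none of the words searched lies within 100 bp of the summit. In the downstream site the capitals mark CGATA on either strand. It has 4 copies within 100 bp of the summit, as do 4.08% of CP190 sites with 4 or more, and 36.9% have at least 1.
LanB2 upstream: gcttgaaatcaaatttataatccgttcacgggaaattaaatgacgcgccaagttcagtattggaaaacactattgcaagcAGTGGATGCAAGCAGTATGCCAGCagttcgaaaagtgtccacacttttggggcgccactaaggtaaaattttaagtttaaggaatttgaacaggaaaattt
LanB2 downstream: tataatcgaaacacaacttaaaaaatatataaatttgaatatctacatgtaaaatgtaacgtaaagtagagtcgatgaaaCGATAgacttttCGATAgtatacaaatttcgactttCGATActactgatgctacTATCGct

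**Figure D3:**
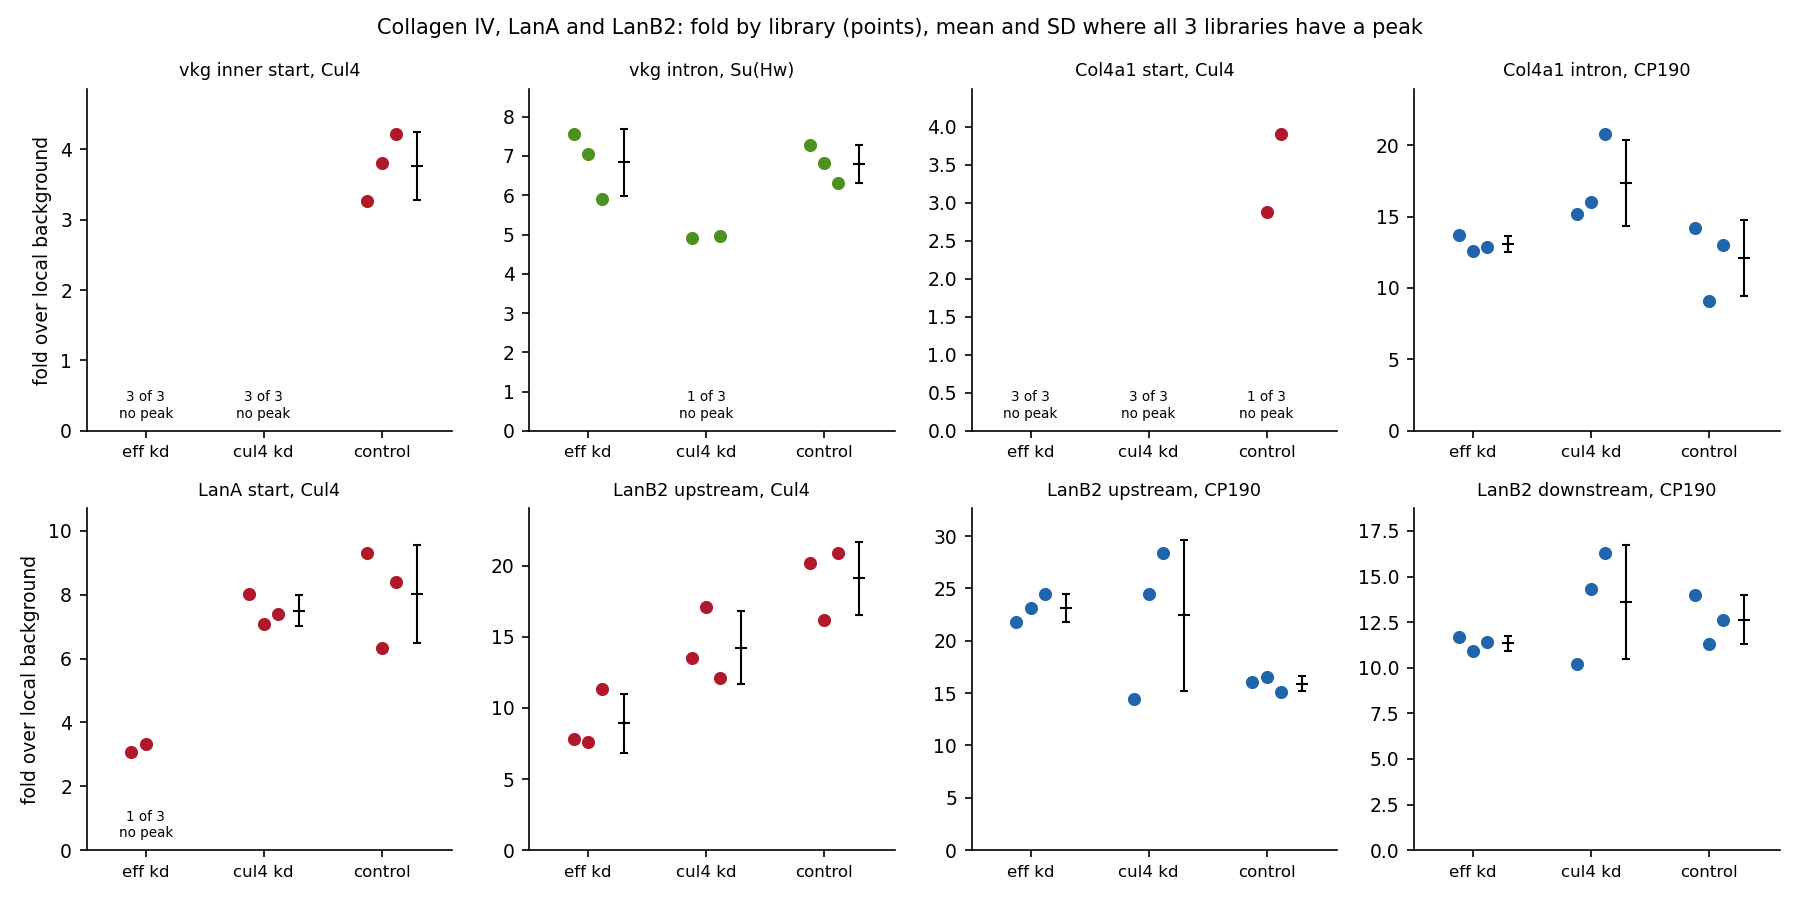
Fold over the local background (y axis, linear, from 0) at 8 regions of *vkg*, *Col4a1*, *LanA* and *LanB2* for eff knockdown, cul4 knockdown and control libraries (points, 3 per group; bars, mean and SD where all 3 libraries have a peak). At the site before *LanB2*, Cul4 lies between 7.62 and 11.3 after eff knockdown and between 16.2 and 20.9 in control, while CP190 lies between 21.8 and 24.5 after eff knockdown and between 15.1 and 16.5 in control.

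The 5 genes differed in where their peaks lay as well as in which proteins they held. Cul4 was at a start in *vkg*, *Col4a1*, *LanA* and *LanB1* and before it in *LanB2*. CP190 lay between divergent starts in *LanB1*, at the far end of *Col4a1* and at both ends of *LanB2*, and peaks that belong to a neighbour's start by distance are part of this count. With only peaks whose nearest start is the member's own, a setting chosen after seeing the data, the CP190 regions kept were 3 in eff knockdown and 2 in cul4 knockdown libraries, in place of 5 and 4, and no count of lost regions moved. The *LanB1* and *LanB2* calls were the same in 27 of 30 libraries, and their percentiles (0 where no peak) differed by a mean of 17.5 points, the least of the 10 pairs. The *vkg* and *Col4a1* calls were the same in 15 of 30, with a mean difference of 33.2 points.

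**Figure D4:**
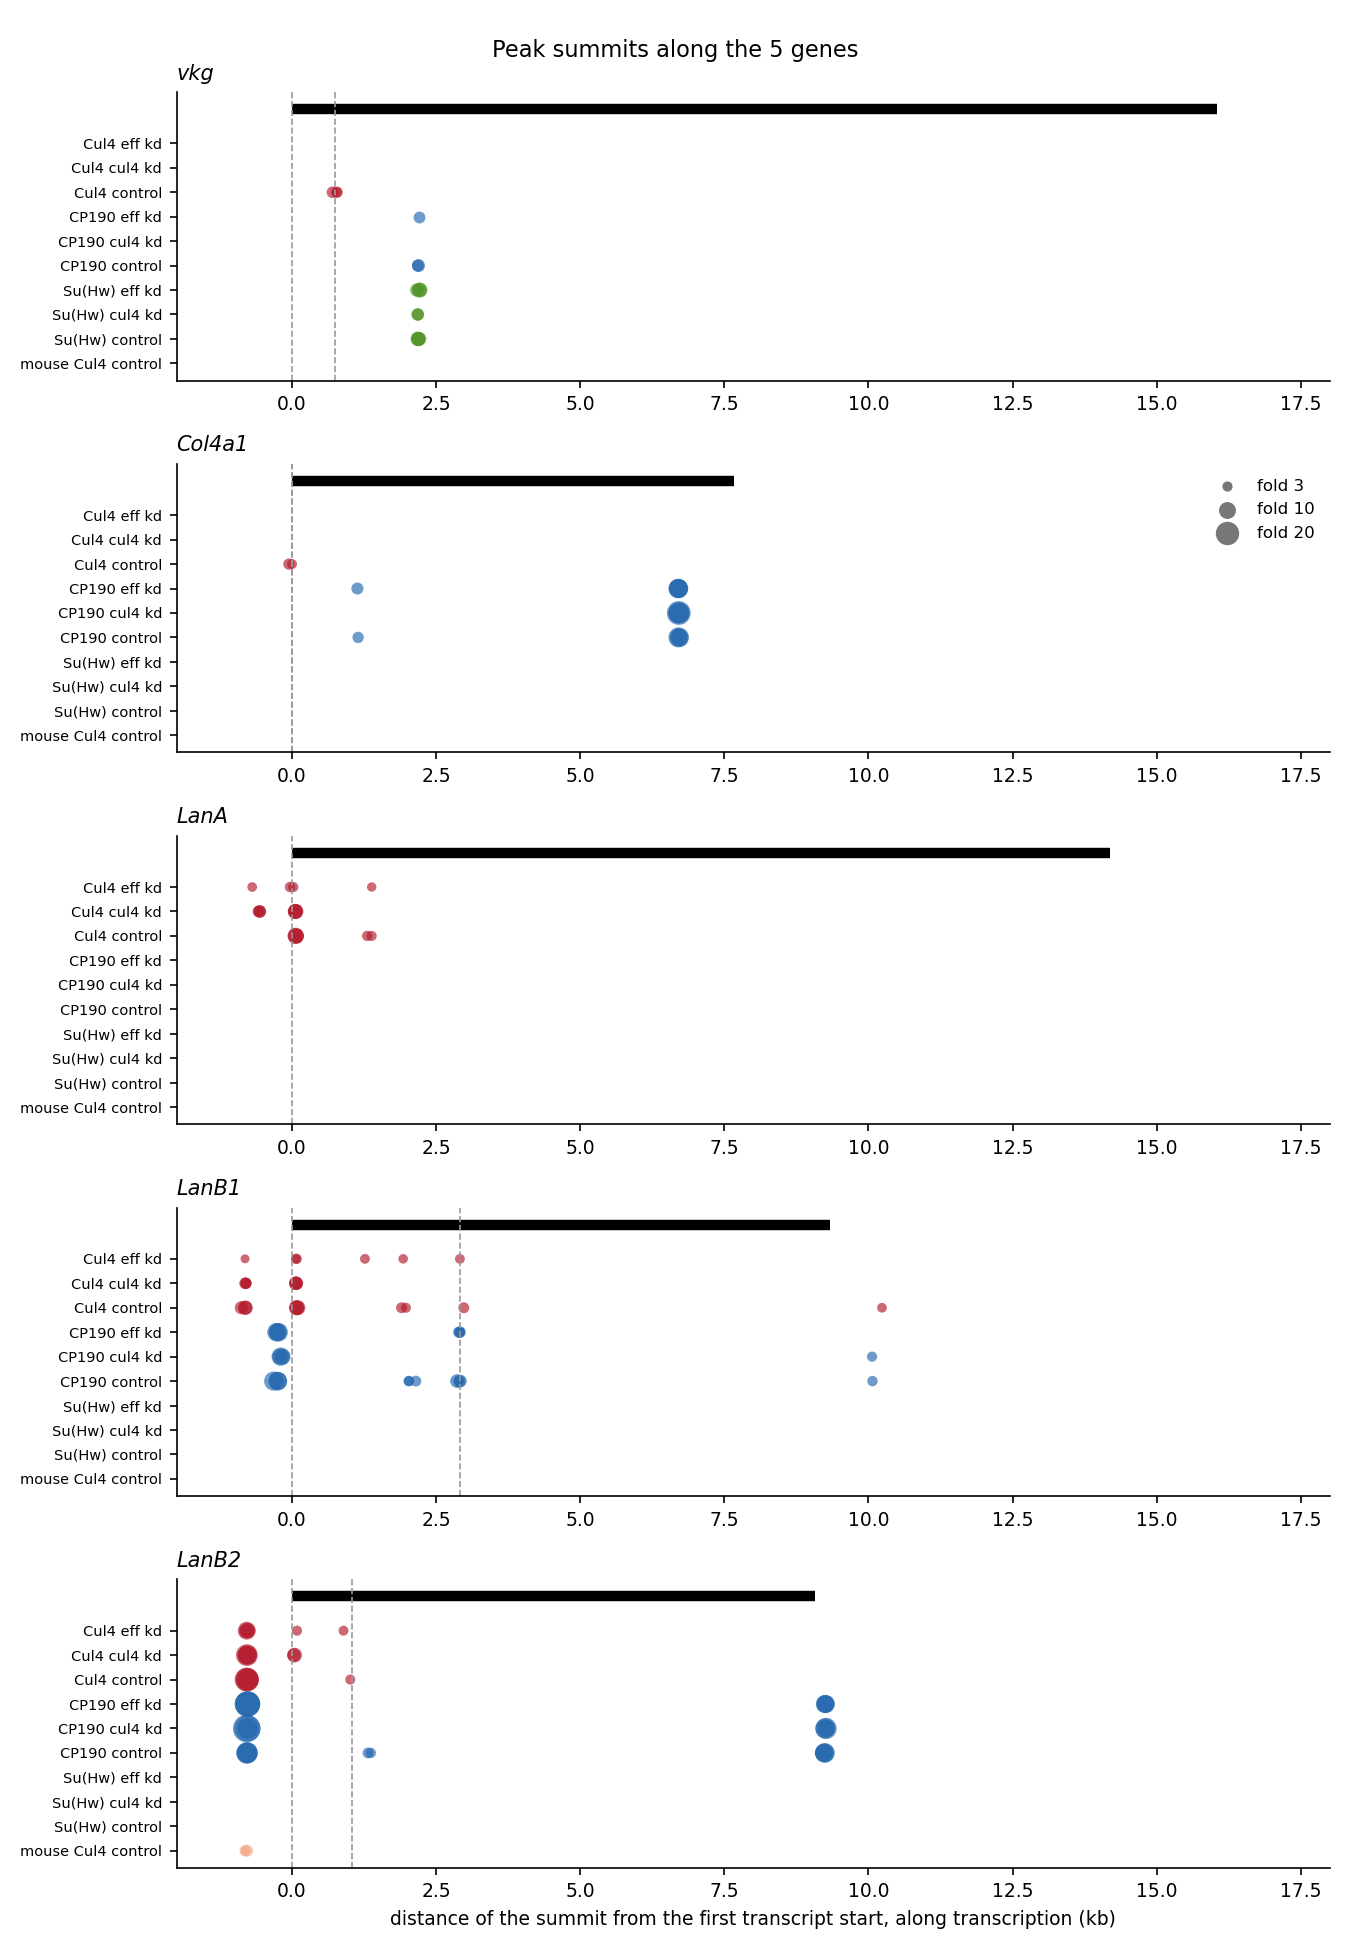
Distance of each peak summit from the first transcript start along the direction of transcription (x axis, kb) for the 5 genes, by protein and treatment (rows; red, rabbit Cul4; light red, mouse Cul4; blue, CP190; green, Su(Hw)); the area of a dot increases with fold, black bars are the annotated spans and dashed lines the starts. The strongest Cul4 and CP190 summits at *LanB2* lie together about 0.775 kb before the start, and the strongest CP190 summits at *Col4a1* lie 6.7 kb after the start.

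Across all genes, the pattern over the 30 libraries most like that of *LanA* was that of *scyl*, *edl* and *Ugt49B1*, with a mean absolute difference of 1.29, 1.33 and 1.46 percentile points, and *scyl* and *edl* had the same call as *LanA* in all 30. For *LanB1* the nearest were *Naa60* and *ATPsynB* (2.75 each) and *CG3061* (3.03). For *LanB2* they were *dachs* (2.88), *CG11357* and *CG33777* (2.93 each), and for *Col4a1* *CG34308* (3.06), *jet* and *Jon25Biii* (3.12 each). For *vkg* no gene came as near, the least being *lncRNA:CR43821* (7.89), *lncRNA:CR44702* (7.9) and *Cad96Ca* (8.02). No other gene of the basement membrane was among these.

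A list of 22 other basement membrane genes was described in the same way. It holds other components (such as *trol*, perlecan, and *wb*, the other laminin alpha chain), enzymes and carriers of collagen, receptors and remodelling enzymes. Cul4 was called in all 3 libraries at 3 of the 22 in eff knockdown and at 10 in cul4 knockdown libraries, against 13 in control, where the shares of all genes were 1.74%, 18.4% and 29.8%. Longer genes can hold more peaks. The 22 spanned 1.49 to 75 kb, with a median of 17.1 kb, against 7.67 to 16 kb for the 5 members. Of the 13 genes in control, *Tango1*, which is needed for collagen secretion, and *if*, an integrin alpha chain, held no Cul4 peak in any eff knockdown library. *SPARC*, a collagen-binding glycoprotein, and *Loxl1*, a lysyl oxidase, held none after cul4 knockdown. That is 2 of 13 in each knockdown, against 27.9% and 14.7% of all genes. By role, as a description with no test, Cul4 was called in all 3 control libraries at 6 of 7 receptors, at 4 of 5 genes of collagen modification and secretion, at 2 of 7 other components and at 1 of 3 remodelling genes. CP190 was called in all 3 libraries at the same 16 genes after eff knockdown, after cul4 knockdown and in control, with shares of all genes of 49.6%, 42.5% and 48.1%. Su(Hw) was called at 9 in eff knockdown and at 8 in cul4 knockdown libraries, against 10 in control, with shares of all genes of 13%, 11.7% and 13.6%. *Plod*, a lysyl hydroxylase of collagen, was in all 3 Su(Hw) libraries only in control, and *Ddr*, a collagen receptor, was in 1 of 3 after cul4 knockdown.

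**Figure D5:**
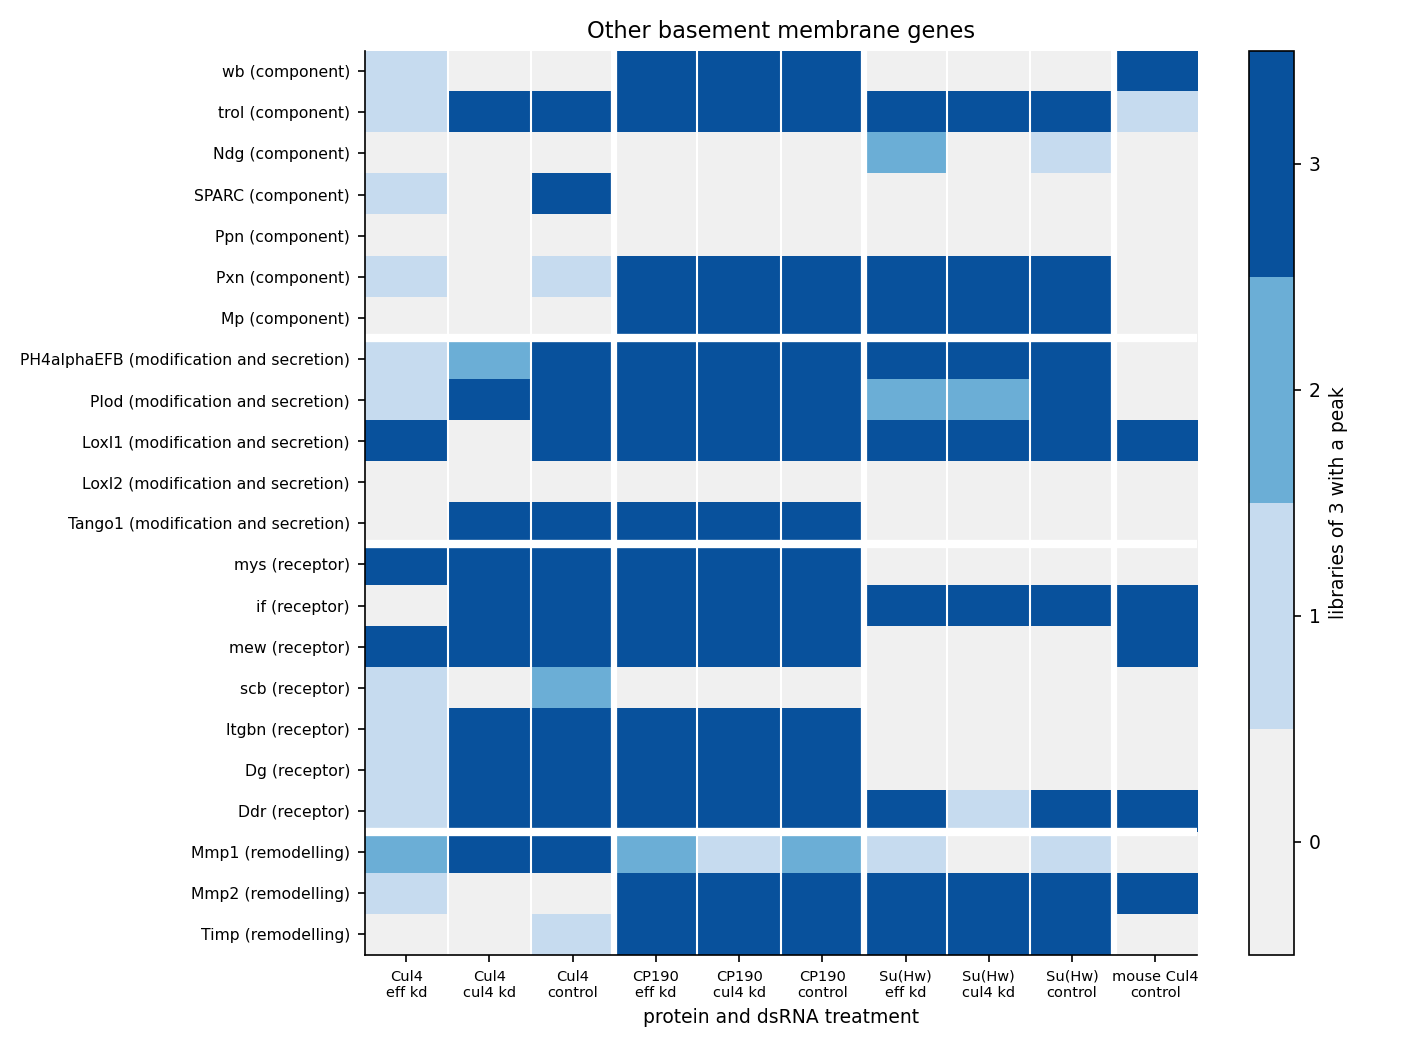
Number of libraries of 3 with a peak (colour, 0 to 3) at 22 other basement membrane genes (rows, by role) for each protein and treatment (columns). The CP190 columns hold the same 16 genes in all 3 libraries under each treatment, while Cul4 is called in all 3 libraries at 3 genes after eff knockdown, 10 after cul4 knockdown and 13 in control.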

How the data were processed

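Chromatin of Kc167 cells was immunoprecipitated with antibodies to Cul4, CP190 or Su(Hw) and sequenced as 50 bp single-end reads. Per the study's methods, adapters were removed (cutadapt 3.4) before alignment to FlyBase release 6.35 (Bowtie2 2.4.2), a mapping quality filter of 20 was set (SAMtools 1.12), Picard took out duplicates, and MACS2 2.2.7.1 called peaks against input at a q of 1e-09, with replicates given together. The deposited lists are 1 per library by their peak names and differ between replicates, and how the single lists relate to that call is not given in the sources used here. The authors' deposited lists give for each peak a fold (a ratio to the local background, 1.4 to 50.8) and the -log10 of its p and q-value (lowest -log10 q 9.04). The deposited score column was not used. Reads are not part of the lists, so depth is unknown, the study's differential test on reads was not run, and binding was compared through calls and within-list percentiles.

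Peaks were assigned to genes of Ensembl release 115 by an overlap of at least 1 bp, and sequences were read from the RefSeq copy of the same assembly. Each knockdown was set against control by an exact permutation test, two-sided, with Benjamini-Hochberg adjustment over all genes called in all 6 libraries (Python 3.11.15, numpy 2.4.6, pandas 2.3.3). Rules for lost and gained regions were tested on simulated data. Genes named besides the members are their neighbours, the fixed list of 22 and the 3 most alike genes per member. The members and lists were chosen with earlier results of these data known. Alternatives were the window, a -log10 q of at least 20, other link and call rules, other measures, each replicate left out, and the replicate block.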

Additional observations from a re-analysis of the deposited data

How the results depend on the processing

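Of 386 counts recomputed under an alternative, 340 stayed within 1.5 times, and of the percentile differences at a member gene, 105 kept their sign and 10 did not. The 340 include counts of 0 that stayed 0, as for gained regions in every setting, so they do not measure how stable the other counts are. With the annotated span alone, no member had Cul4 in all 3 eff knockdown libraries (0, in place of 1), and by gene 0 members were higher and 2 lower in CP190 after eff knockdown and 2 lower after cul4 knockdown. The eff knockdown difference for CP190 at *LanB2* was then -15. Within 1 kb of a start, Su(Hw) had 0 members in all 3 libraries of the control and of the eff knockdown, 0 kept regions and 0 lower percentiles after eff knockdown, and CP190 kept 3 regions after eff and 2 after cul4 knockdown. Peaks nearest to a member's own start, an alternative chosen after seeing the data, gave the same 3 and 2. With a -log10 q of at least 20, lost Cul4 regions after cul4 knockdown and member genes without Cul4 after either knockdown came to 0, and lost CP190 regions to 0 after eff and 1 after cul4 knockdown. With a difference of 2 libraries as the rule, lost regions were 3 and 4 for Cul4 and 2 and 4 for CP190 after eff and cul4 knockdown, and member genes without a peak 2 for Cul4 in each and 1 for CP190 after cul4 knockdown. By the log2 of the fold, Cul4 was lower at 1 member in each knockdown, CP190 lower at 0 after eff and higher at 1 after cul4 knockdown, and Su(Hw) lower at 0 after eff knockdown. The log2 fold differed by 0.136 and 0.53 at *Col4a1* for CP190 in the same order, by 0.442 at *LanB2* for CP190 after cul4 knockdown and by 0.00388 at *vkg* for Su(Hw) after eff knockdown. By log2 rank, the sign turned at *LanA* for Cul4 (0.34) and at *Col4a1* for CP190 (0.0713) after cul4 knockdown. The causes of these changes were not tested.

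With 1 replicate number left out of both groups, members in all remaining libraries ranged from 0 to 1 for mouse Cul4, from 1 to 3 for Cul4 after eff knockdown, and from 0 to 1 for Su(Hw) after cul4 knockdown. Lost Cul4 regions ranged from 1 to 5 after eff and from 1 to 4 after cul4 knockdown, lost CP190 regions from 1 to 2 and from 2 to 4, and kept regions from 1 to 3 for Cul4 after eff and from 0 to 1 for Su(Hw) after cul4 knockdown. Genes without Cul4 ranged from 1 to 2 in each knockdown, and without CP190 from 0 to 1 after cul4 knockdown. Genes all lower ranged from 0 to 2 for Cul4 after eff, from 1 to 2 for CP190 in each knockdown and from 0 to 1 for Su(Hw) after cul4 knockdown. The CP190 differences at *Col4a1* ranged from -9.01 to 0.205 after eff and from -4.75 to 3.57 after cul4 knockdown, and at *LanB2* from -3.6 to 0.0126 after cul4 knockdown.

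Replicate numbers are shared between the groups, but in no comparison did all 3 same-numbered pairs deviate together. The correlations ran from -0.418 to 0.535, and for CP190 after cul4 knockdown they were 0.535 and 0.37 in pairs 1 and 2 and -0.345 in pair 3, so the numbers were not taken to pair the libraries. With the replicate block, the differences keep their values (-8.01 for Cul4 at *LanB1* after cul4 knockdown, for example), and the sign-flip p of the 11 differences ran from 0.25, the smallest 3 pairs can give, to 1. The read depth is unknown, so a missing call does not show that a site is unbound.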

Other observations

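Some peaks belong to no comparison because they were called in 1 or 2 libraries of a group. CP190 was called in a coding exon of *Col4a1*, about 1.14 kb after its start, in 1 eff knockdown library (fold 4.61) and 1 control library (4.01). In *LanB1*, eff knockdown replicate 1 held 3 Cul4 peaks inside the gene, at folds of 2.74, 2.51 and 2.69, and of these only the last 2 overlapped a control call. CP190 lay near the start of *CG7115*, downstream of *LanB1*, in 1 cul4 knockdown library (3.03) and 1 control library (3.21). In a *LanB2* intron, 274 and 322 bp after the second start, CP190 was called in no knockdown library and in 2 control libraries (3.55 and 3.14).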
